A study of Mus musculus with 12 samples.

Results

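Chemokines and their receptors were examined in perigonadal fat of mice with more or less of the insulin-responsive glucose transporter Glut4 in adipose tissue. The 39 genes were chosen by name, as those whose single platform symbol, updated by gene ID, was Ccl, Cxcl, Ccr, Cxcr or Xcl followed by a number, or Cx3cl1, Cx3cr1, Ackr3 or Pf4. They were read by 44 of 12422 probe sets, and where a gene had several, the brightest on average stood for it. There were 25 ligands and 14 receptors. The rule used names only, but it was set with earlier results of these data known. All animals were females of 6 months, fed ad libitum, and each gave 1 Affymetrix array. The overexpressors (n = 3) carried a Glut4 transgene under the aP2 promoter on the FVB strain, and FVB littermates were their controls (n = 3). The knockouts were adipose-Glut4-/- mice (n = 3), and aP2-Cre transgenic mice were their controls (n = 3), both on a C57B6/FVB/SV129 mix. The aP2 promoter, that of Fabp4, is known as an adipocyte promoter that is also active in macrophages.

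Chemokines are small secreted proteins that bind G protein-coupled receptors and draw leukocytes along a gradient. CC, CXC, XC and CX3C ligands are named by the spacing of their first cysteines, and most receptors bind several ligands. In fat, the pair of Ccl2 and its receptor Ccr2 is best known for drawing monocytes that become tissue macrophages. Cxcl12 with Cxcr4 and Ackr3 serves tissue homing, and Cxcl9, Cxcl10 and Cxcr3 serve interferon-driven T cell recruitment. Many of these genes share a chromosome: by RefSeq, 12 of the 39 are on chromosome 11 (11 Ccl genes and Ccr7), 8 on chromosome 9 (receptors) and 7 on chromosome 5 (CXC ligands).

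The sample was fat with resident leukocytes. The summed intensity of 6 adipocyte markers (among them Adipoq, Lep, Fabp4 and the manipulated gene Slc2a4) was 14966 to 19903 in overexpressors, 17290.3 to 20053 in their controls, 18023 to 20239 in knockouts and 17376 to 18031 in theirs. For macrophage markers, 12 of 14 listed (Itgam was dim and Cd163 had no probe set of its own), it was 8159 to 8973 in overexpressors, 7659.8 to 15027 in their controls, 6634 to 9819 in knockouts and 6235 to 9367 in theirs. Each line of 6 arrays had its own smallest value, 21.9 in the overexpressor line and 22.27 in the knockout line, so no level was set across the lines. Array medians ran from 185.8 to 219.4, and overexpressor control 1 was the brightest array and had the highest macrophage sum. The main Slc2a4 probe set, which reads Glut4 mRNA, gave 625, 1109.7 and 1042 in overexpressors, against 639, 583 and 1212 in their controls, which overlapped, and 378, 365 and 363 in knockouts, against 416, 514 and 614 in their controls, which did not; whether it covers the transgene or the deleted part is not stated in the labels. Values below are linear intensities per array, and log2 fold changes are on the scale log2(intensity + 36.92), which understates changes of dim genes.

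Of the 39 genes, 20 (13 ligands and 7 receptors) passed the filter on dim probe sets and 19 did not. The filter used the mean over the 12 arrays of both lines, so a gene could pass or fail through its level in 1 line. In overexpressor fat, 0 of the 20 were called by limma (Benjamini-Hochberg adjusted p under 0.05 over 7454 probe sets), where 0.0805% of all tested probe sets were. An unadjusted p under 0.05 was found for 0 of the 20, against 4.76% of all, and 10 were higher and 10 lower, with a median log2 change of -0.0019 against -0.07 over all. Groups that did not overlap were found for 0 of the 20, against 8.77% of all. In knockout fat, 0 of the 20 were called, where 0.121% of all were, and 0 had an unadjusted p under 0.05, against 3.98%. There 12 were higher and 8 lower (median 0.03, over all 0.04), and the groups did not overlap for 1 of the 20, Xcl1, against 7.51% of all. Adjusted p ran from 0.913 to 0.983 in the overexpressor comparison and was 1 for all 20 in the knockout comparison. Fold changes stand in parentheses below, on the log2 scale with 95% intervals from limma, and none of them passed the test.

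**Figure D1:**
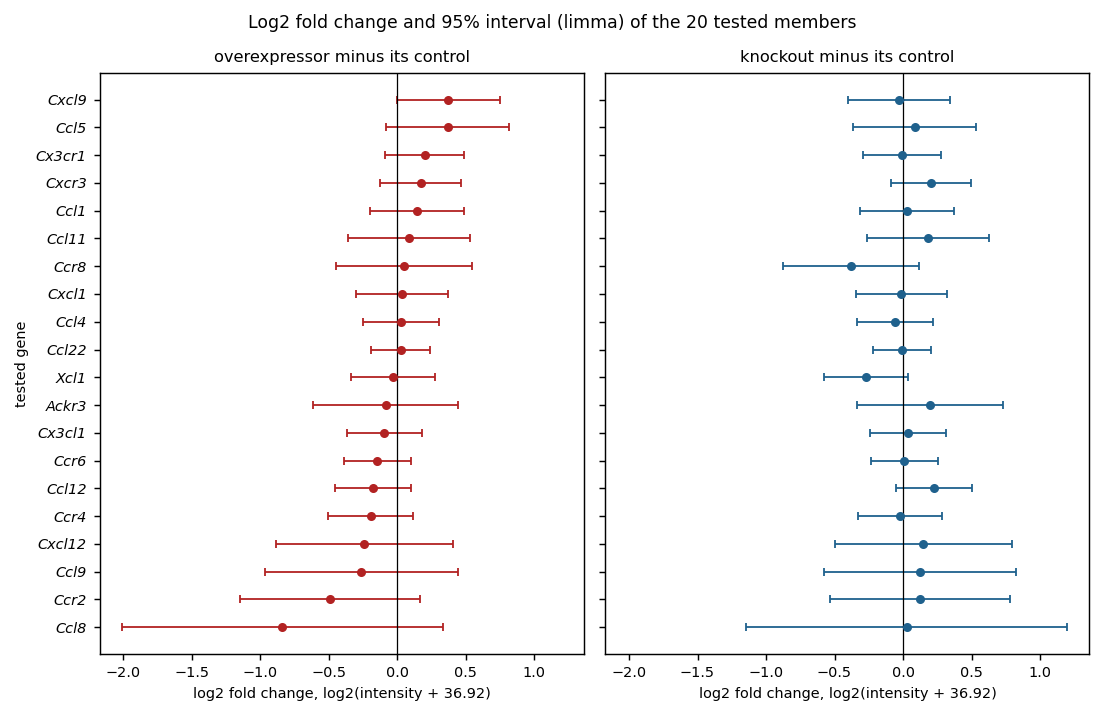
Log2 fold changes of the 20 tested genes (horizontal axis, with 95% intervals from limma) for overexpressor minus control (left panel) and knockout minus control (right panel), ordered from the highest to the lowest in the overexpressor comparison. Every interval spans 0; the widest is that of Ccl8 (-2.01 to 0.34 in the overexpressor comparison) and the narrowest that of Ccl22 (-0.19 to 0.24).

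Among ligands of monocytes and macrophages, Ccl8, a CC chemokine also named MCP-2, had the lowest overexpressor fold change of the tested chemokine and receptor genes. It read 549, 282 and 291 in overexpressors, against 1769, 489 and 332 in their controls (log2 fold change -0.84, 95% interval -2.01 to 0.34). Overexpressor control 1 stood far above the other 5 arrays of its line, and without it the fold change was -0.16. In the other line Ccl8 read 362, 397 and 989.7 in knockouts, against 852, 386 and 410.3 in their controls (0.03, 95% interval -1.15 to 1.20), with 1 high array in each group, knockout 3 and knockout control 1. Ccl9, a CC ligand of Ccr1 in mice, read 891, 714 and 873 in overexpressors, against 1539, 1033 and 609 in their controls (-0.26, 95% interval -0.96 to 0.44). Its controls lay both above and below all overexpressors, and without overexpressor control 1 the fold change was 0.05. In the knockout line it read 497, 578 and 1005 in knockouts, against 871, 501 and 504 in their controls (0.12, 95% interval -0.58 to 0.83), and the high arrays were again knockout 3 and knockout control 1.

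Ccr2, the receptor of Ccl2, Ccl7 and Ccl12 on monocytes, read 154, 106 and 198 in overexpressors, against 384, 181 and 157 in their controls (-0.49, 95% interval -1.15 to 0.17; -0.15 without overexpressor control 1). It read 205, 214 and 298 in knockouts, against 329, 174 and 167 in their controls (0.13, 95% interval -0.53 to 0.78). The groups overlapped in both lines, and the highest arrays were those highest for Ccl8 and Ccl9. Ccl12, a monocyte attractant of the mouse also named MCP-5, read 156, 172 and 171 in overexpressors, against 172, 191 and 218 in their controls (-0.18, 95% interval -0.45 to 0.10). In the knockout line Ccl12 read 194, 199 and 194 in knockouts, against 201, 160.0 and 131 in their controls (0.23, 95% interval -0.05 to 0.50). Its 3 knockouts lay close together while their controls spread: the knockout mean was 196 ± 2.76 against 164 ± 35.4 in controls, and the overexpressor mean 166 ± 9.46 against 194 ± 23.3 (SD, n = 3 each). Ccl11, or eotaxin, which draws eosinophils through Ccr3, read 306, 340.4 and 529 in overexpressors, against 338, 393 and 340.3 in their controls (0.09, 95% interval -0.36 to 0.53). The Ccl11 values were 274, 282 and 469 in knockouts, against 287, 262 and 317 in their controls (0.18, 95% interval -0.26 to 0.63). A single array, the third of each mutant group, was highest, and without it the fold changes were -0.13 and -0.04.

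**Figure D2:**
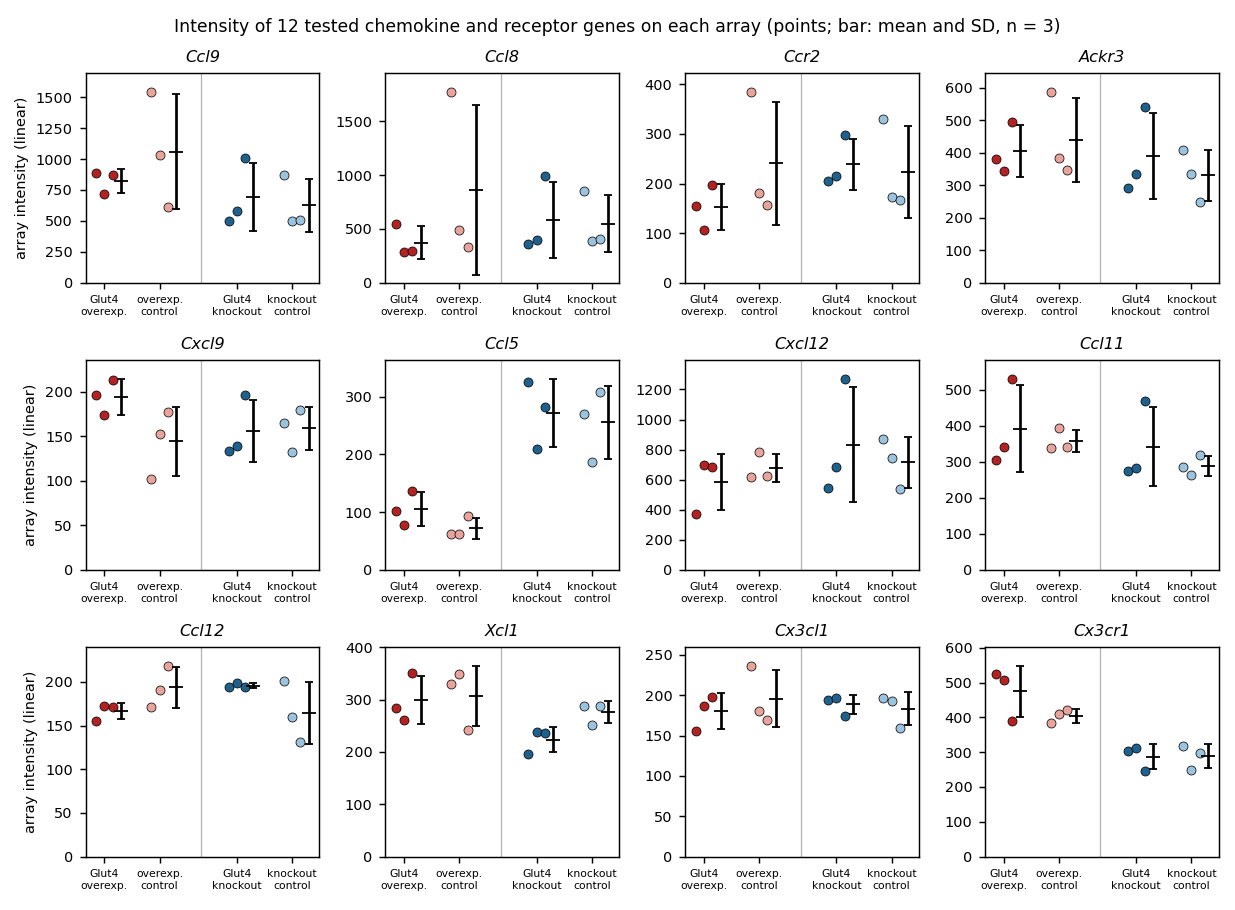
Linear array intensity (vertical axes, from 0) of 12 tested genes; points are the 3 arrays of each group and the bars beside them the mean and SD. Ccl9, Ccl8, Ccr2 and Ackr3 share their highest array in the overexpressor line, overexpressor control 1. In the knockout line Ccl9, Ccl8 and Ackr3 are highest on knockout 3, and Ccr2 on knockout control 1. Xcl1 alone separates the knockouts (195 to 238) from their controls (252 to 288).

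Ccl9, Ccr2, Ccl8 and Ackr3 correlated with the macrophage markers over the 6 arrays of each line, in a comparison chosen after their values were seen. Of these 4, only Ccl9 kept a high r in both lines without the 2 arrays farthest from the median of the markers. Leaving them out keeps 4 arrays and narrows the range of the markers, which can itself lower r. No relation passed adjustment. The level of each of the 20 tested genes was set against the mean log2 level of the 12 macrophage markers (Adgre1, Cd68, Csf1r and others, none of them a chemokine or receptor of the set) over the 6 arrays of each line, 40 relations in all. With 6 arrays, the smallest exact permutation p is 0.00139 for r and 0.00278 for rho. The permutations ran over all 6 arrays of a line, mutants and controls together, so these p-values do not account for the groups. Ccl9 gave r = 0.97 (exact permutation p = 0.00278, adjusted p = 0.0741), rho = 0.94 (p = 0.0167, adjusted p = 0.333) in the overexpressor line. It gave r = 0.97 (exact permutation p = 0.00556, adjusted p = 0.0741), rho = 0.83 (p = 0.0583, adjusted p = 0.374) in the knockout line. Without the 2 arrays farthest from the median of the markers, its r was 0.96 in the overexpressor line and 0.88 in the knockout line. Ccr2 gave r = 0.89 (exact permutation p = 0.0264, adjusted p = 0.167), rho = 0.77 (p = 0.103, adjusted p = 0.374) in the overexpressor line. It gave r = 0.96 (exact permutation p = 0.00833, adjusted p = 0.0833), rho = 0.89 (p = 0.0333, adjusted p = 0.333) in the knockout line. Without those 2 arrays r was 0.83 in the knockout line and 0.42 in the overexpressor line, where a high r was seen only with them.

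Ccl8 gave r = 0.91 (exact permutation p = 0.0375, adjusted p = 0.167), rho = 0.60 (p = 0.242, adjusted p = 0.483) in the overexpressor line. It gave r = 0.93 (exact permutation p = 0.0222, adjusted p = 0.167), rho = 0.71 (p = 0.136, adjusted p = 0.389) in the knockout line. Without the 2 arrays its r was 0.16 and 0.09, so a high r was seen only with them. Ackr3 gave r = 0.81 (exact permutation p = 0.0361, adjusted p = 0.167), rho = 0.89 (p = 0.0333, adjusted p = 0.333) in the overexpressor line. It gave r = 0.85 (exact permutation p = 0.0319, adjusted p = 0.167), rho = 0.83 (p = 0.0583, adjusted p = 0.374) in the knockout line. Without the 2 arrays its r was 0.80 in the overexpressor line and 0.25 in the knockout line, where a high r was seen only with them. Among the other 16 genes, Ccr8 gave r = -0.89 (exact permutation p = 0.00417, adjusted p = 0.0741), rho = -0.94 (p = 0.0167, adjusted p = 0.333) in the knockout line (-0.99 without the 2 arrays), and Cxcl9 gave r = -0.87 (exact permutation p = 0.0486, adjusted p = 0.177), rho = -0.49 (p = 0.356, adjusted p = 0.645) in the overexpressor line, which turned to 0.84 without them. None of the 40 relations passed after Benjamini-Hochberg adjustment. An r of at least 0.8 in both lines was found for 4 of the 20 genes, these 4, and for 2.16% of the 7442 tested probe sets other than the markers, the 20 genes among them. Over those probe sets the median r was 0.30 in the overexpressor line and 0.31 in the knockout line. The cut was not set before the values were seen, so these shares are a description and not a test. Among the 19 dim genes, outside the 40 relations, Ccr1 alone reached 0.8 in both lines. Its r was 0.92 in the overexpressor line and 0.85 in the knockout line (0.99 and 0.66 without the 2 arrays). With each group's mean subtracted, r was between 0.84 and 0.98 for Ccl9, Ccr2, Ccl8 and Ackr3 in the 2 lines. With array medians subtracted, r was 0.98 and 0.96 for Ccl9, 0.88 and 0.94 for Ccr2, 0.94 and 0.92 for Ccl8, and 0.77 and 0.78 for Ackr3.

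Markers of some other cell types moved with the macrophage markers and others did not. The mean of 6 fibroblast markers correlated with theirs at r = 0.87 in the overexpressor line and 0.81 in the knockout line. For 3 lymphatic endothelial markers the values were 0.95 and 0.75, and for 5 mesothelial markers 0.94 and 0.37, given without a test. They were 0.06 and -0.51 for neutrophil, -0.49 and -0.40 for dendritic cell, -0.34 and 0.34 for adipocyte and 0.73 and -0.14 for T cell markers. The summed fibroblast level was 14412 to 17442 in overexpressors, 16519 to 23425 in their controls, 14017 to 18690.4 in knockouts and 15767 to 20118 in theirs, and all 6 fibroblast markers were lower in overexpressors, 4 of them with an unadjusted p under 0.05 and 0 called (limma). Such a p was found for 4.76% of all tested probe sets. The part of each cell type in the 4 genes was not tested, and in whole fat fewer cells of a type and less RNA per cell cannot be told apart. All 12 macrophage markers were lower in overexpressors (median log2 change -0.28) and 10 of 12 were higher in knockouts (median 0.09), with 0 called and 0 at an unadjusted p under 0.05 by limma in either comparison. Their mean log2 level was 9.22, 9.16 and 9.27 in overexpressors, against 9.91, 9.48 and 9.05 in their controls. In the other line it was 8.94, 9.09 and 9.38 in knockouts, against 9.33, 8.83 and 8.90 in their controls. The groups overlapped in both lines, and overexpressor control 1 was the highest and overexpressor control 3 the lowest of their line. Over all tested probe sets, 70.3% were lower in overexpressors and 63% higher in knockouts, so the markers' direction was that of most probe sets.

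**Figure D3:**
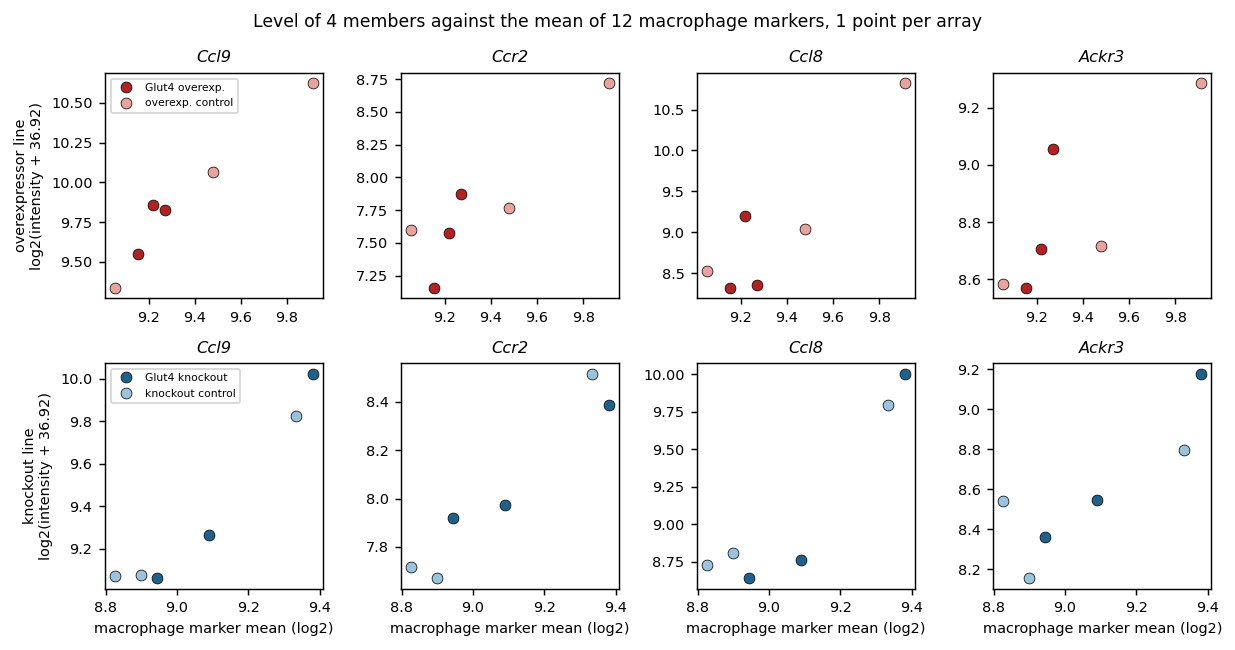
Level of Ccl9, Ccr2, Ccl8 and Ackr3 (vertical axes, log2(intensity + 36.92)) against the mean of 12 macrophage markers on the same scale (horizontal axes), 1 point per array, with the overexpressor line above and the knockout line below. Ccl9 climbs with the markers over the whole range in the overexpressor line, and Ccl8 stands high only on the arrays with the most marker signal (overexpressor control 1; knockout 3 and knockout control 1).

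The starts of these 4 genes are printed because their r with the macrophage markers was at least 0.8 in both lines. That of Cxcl9 is added, which had the smallest p among the tested chemokine and receptor genes in the overexpressor comparison. Each window runs from 250 bases before to 50 bases after the RefSeq start (GRCm38.p6), 5′ to 3′ on the gene's strand, at chr11:83578587-83578886, minus strand for Ccl9, chr11:82114935-82115234, plus strand for Ccl8, chr9:124101933-124102232, plus strand for Ccr2, chr1:90203730-90204029, plus strand for Ackr3 and chr5:92328030-92328329, minus strand for Cxcl9. Capitals mark matches, on either strand, to an NF-kB core GGGNTTTCC, an interferon element core GAAANNGAA, the STAT element TTCNNNGAA or the PU.1 core GAGGAA (overlapping matches run together).
Ccl9: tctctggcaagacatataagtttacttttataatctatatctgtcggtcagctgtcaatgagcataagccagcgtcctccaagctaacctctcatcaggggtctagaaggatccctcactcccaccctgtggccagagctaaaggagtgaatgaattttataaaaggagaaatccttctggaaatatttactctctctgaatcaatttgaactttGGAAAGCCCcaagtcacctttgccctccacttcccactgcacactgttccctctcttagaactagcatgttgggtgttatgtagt
Ccl8: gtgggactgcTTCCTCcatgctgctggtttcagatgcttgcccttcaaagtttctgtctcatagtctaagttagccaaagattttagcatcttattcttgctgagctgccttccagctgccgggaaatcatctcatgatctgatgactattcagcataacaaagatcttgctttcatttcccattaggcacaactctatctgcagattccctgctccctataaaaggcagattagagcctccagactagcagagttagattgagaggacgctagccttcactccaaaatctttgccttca
Ccr2: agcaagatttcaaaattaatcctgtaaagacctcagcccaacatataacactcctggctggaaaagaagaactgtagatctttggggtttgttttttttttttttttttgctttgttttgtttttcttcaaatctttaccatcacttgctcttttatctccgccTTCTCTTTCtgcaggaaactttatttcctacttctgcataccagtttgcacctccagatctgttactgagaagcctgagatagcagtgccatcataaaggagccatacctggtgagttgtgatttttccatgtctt
Ackr3: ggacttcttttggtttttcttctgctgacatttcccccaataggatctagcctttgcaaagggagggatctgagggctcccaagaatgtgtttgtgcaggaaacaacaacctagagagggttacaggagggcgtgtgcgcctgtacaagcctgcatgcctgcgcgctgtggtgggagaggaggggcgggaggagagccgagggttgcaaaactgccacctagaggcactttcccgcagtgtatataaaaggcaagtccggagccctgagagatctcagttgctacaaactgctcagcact
Cxcl9: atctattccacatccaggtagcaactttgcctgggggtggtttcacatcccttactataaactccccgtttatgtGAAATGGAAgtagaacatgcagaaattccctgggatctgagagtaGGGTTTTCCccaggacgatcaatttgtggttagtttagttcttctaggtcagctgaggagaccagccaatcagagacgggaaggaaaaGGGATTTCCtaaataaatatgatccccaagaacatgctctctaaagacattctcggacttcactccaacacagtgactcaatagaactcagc
The NF-kB core was found once in the Ccl9 window and at 2 places in the Cxcl9 window, which also held the interferon core once. The Ccl8 window held the PU.1 core once and the Ccr2 window the interferon core once, and the Ackr3 window held none of these letters. Of 32851 windows in the table, 1.68% held the NF-kB core, 8.56% the interferon core, 8.3% the STAT element and 28.3% the PU.1 core. Of the 33 windows found for 31 of the 39 genes, 2 held the NF-kB core, 6 the interferon core, 3 the STAT element and 12 the PU.1 core. The first 2 cores and the PU.1 core were chosen after the values were seen; longer letters chosen earlier were in 20.7% of windows (12 of the 33) for a loose NF-kB consensus, 0.155% (0 of 33) for a strict one and 3.44% (2 of 33) for the interferon element. Those longer letters had 0 matches in the windows of Ccl9, Ccl8, Ccr2 and Ackr3, and the loose NF-kB consensus had 1 in that of Cxcl9. A match is a description of the letters, not of binding.

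**Figure D4:**
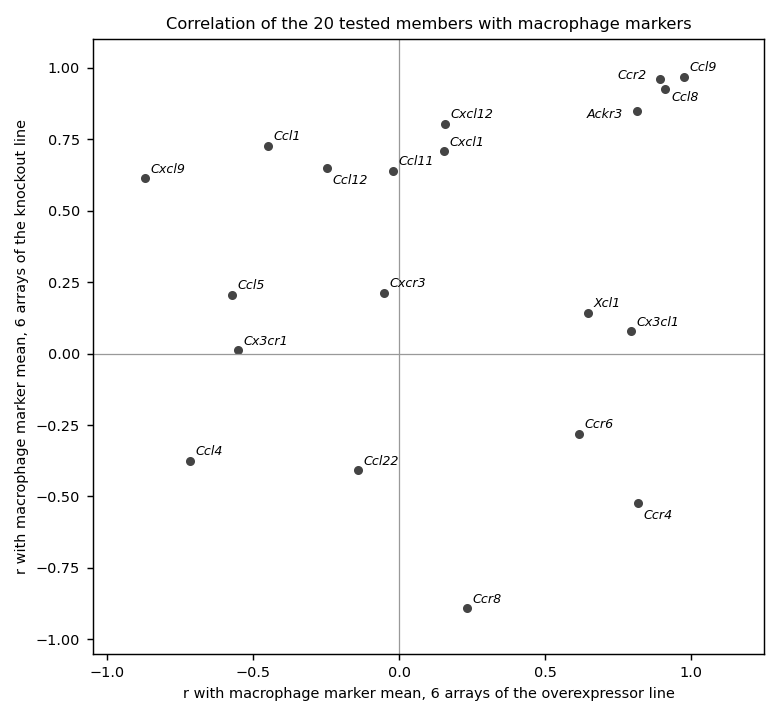
Pearson's r of each of the 20 tested genes with the mean of 12 macrophage markers, over the 6 arrays of the overexpressor line (horizontal axis) and the 6 of the knockout line (vertical axis). Ccl9, Ccr2, Ccl8 and Ackr3 lie together at the upper right, while Cxcl9 (-0.87 and 0.61) and Ccr8 (0.23 and -0.89) take opposite signs in the 2 lines.

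Among ligands of T cells, Cxcl9, an interferon-gamma-induced ligand of Cxcr3, had the highest overexpressor fold change of the tested chemokine and receptor genes. It read 196, 173 and 213 in overexpressors, against 102, 152 and 178 in their controls (0.37, 95% interval -0.0026 to 0.75, unadjusted p = 0.0514, limma adjusted p = 0.913). The lowest overexpressor lay just below the highest control, and the fold change was 0.19 without overexpressor control 1 and 0.51 without overexpressor control 3. In the knockout line it read 133, 139 and 196 in knockouts, against 165, 133 and 179.8 in their controls (-0.03, 95% interval -0.40 to 0.35), with interleaved groups. Its receptor Cxcr3, found on activated T cells, read 243, 227 and 245 in overexpressors, against 199.9, 246 and 181 in their controls (0.17, 95% interval -0.12 to 0.46). Cxcr3 read 259, 219 and 224 in knockouts, against 221, 223 and 156 in their controls (0.20, 95% interval -0.09 to 0.50). Cxcl10, another Cxcr3 ligand, read 26.7, 21.9 and 31.5 in overexpressors, against 27.1, 28.8 and 32.0 in their controls. The Cxcl10 values were 39.95, 46.0 and 33.0 in knockouts, against 34.5, 39.2 and 28.6 in their controls. Cxcl10 was among the dim genes, and its groups overlapped in both lines.

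Ccl5, or RANTES, a T cell product that draws T cells and monocytes, read 102, 77.0 and 136 in overexpressors, against 62.4, 61.1 and 93.2 in their controls (0.37, 95% interval -0.08 to 0.82). The groups overlapped, with overexpressor 3 highest, and without that array the fold change was 0.22. It read 325, 209 and 282 in knockouts, against 271, 187 and 309 in their controls (0.08, 95% interval -0.36 to 0.53). Ccl4, or MIP-1 beta, a product of activated macrophages and T cells, had fold changes near 0 in both comparisons. It read 1537, 1529 and 1775 in overexpressors, against 1382, 1601 and 1780.5 in their controls (0.03, 95% interval -0.25 to 0.30). Ccl4 read 1195, 1391 and 1084 in knockouts, against 1279.5, 1286 and 1244 in their controls (-0.06, 95% interval -0.34 to 0.22). Xcl1, or lymphotactin, which T and NK cells release for Xcr1-bearing dendritic cells, read 195, 238 and 237 in knockouts, against 288, 252 and 288 in their controls (-0.27, 95% interval -0.58 to 0.04, unadjusted p = 0.0795). All knockouts lay below all controls, as did 1.89% of all tested probe sets. In the other line Xcl1 read 285, 262 and 351 in overexpressors, against 330.3, 349 and 242 in their controls (-0.03, 95% interval -0.34 to 0.28), with overlapping groups. Of 9 named T cell markers 4 were dim (Cd3d, Cd3g, Cd8a and Cd8b1), and the summed level of the 5 tested was 2379.8 to 2455 in overexpressors, 2399.6 to 2814 in their controls, 2037 to 2662 in knockouts and 2147 to 2470.5 in theirs.

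Cxcl12, the stromal ligand of Cxcr4, had 3 probe sets, all tested. The brightest read 371, 695 and 685 in overexpressors, against 619.6, 782 and 624 in their controls (-0.24, 95% interval -0.89 to 0.41). The Cxcl12 values were 544, 686 and 1269 in knockouts, against 870.4, 743 and 535 in their controls (0.15, 95% interval -0.50 to 0.79). Overexpressor 1 was the lowest array of its line and knockout 3 the highest of the other, and the fold changes were 0.04 and -0.19 without them. The other probe sets gave -0.13 and -0.43 in overexpressors, and 0.04 and -0.41 in knockouts, so the 3 disagreed in sign in the knockout comparison. Ackr3, an atypical receptor that takes up Cxcl12 without G protein signalling, read 380.2, 343 and 495 in overexpressors, against 587, 383 and 347 in their controls (-0.08, 95% interval -0.61 to 0.45). Ackr3 read 292, 337 and 542 in knockouts, against 408, 335 and 248 in their controls (0.20, 95% interval -0.33 to 0.73). Both pairs of groups overlapped.

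Cx3cl1, or fractalkine, a membrane-bound ligand of endothelium and other cells, read 156, 187 and 198 in overexpressors, against 236, 181 and 169.9 in their controls (-0.09, 95% interval -0.37 to 0.18). In the knockout line Cx3cl1 read 194, 197 and 175 in knockouts, against 197, 193 and 159.7 in their controls (0.04, 95% interval -0.24 to 0.32). Its receptor Cx3cr1, carried by monocytes and resident macrophages, read 525, 508 and 391 in overexpressors, against 383, 411 and 422 in their controls (0.20, 95% interval -0.09 to 0.49). The Cx3cr1 values were 302, 313 and 246 in knockouts, against 318, 249.6 and 299 in their controls (-0.0079, 95% interval -0.29 to 0.28). Overexpressors 1 and 2 were the highest of their line for Cx3cr1, and overexpressor 3 lay among the controls. Against the macrophage markers Cx3cr1 gave r = -0.55 (exact permutation p = 0.242, adjusted p = 0.42), rho = -0.71 (p = 0.136, adjusted p = 0.389) in the overexpressor line. It gave r = 0.01 (exact permutation p = 0.983, adjusted p = 0.983), rho = 0.14 (p = 0.803, adjusted p = 0.917) in the knockout line; without the 2 farthest arrays r was -0.03 and 0.81.

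Ccr8, a receptor of type 2 and regulatory T cells, had the lowest knockout fold change of the tested chemokine and receptor genes. It read 677, 535 and 341 in knockouts, against 542, 749 and 707 in their controls (-0.38, 95% interval -0.87 to 0.12), where knockout 3 was lowest and knockout 1 alone reached into the range of the controls; without knockout 3 the fold change was -0.12. In the other line it read 989, 802 and 652 in overexpressors, against 792, 906 and 643 in their controls (0.05, 95% interval -0.44 to 0.55). Ccl1, its ligand, read 470.2, 460.1 and 646 in overexpressors, against 385, 544 and 483 in their controls (0.15, 95% interval -0.20 to 0.49). Ccl1 read 456, 464 and 507 in knockouts, against 536, 476 and 395 in their controls (0.03, 95% interval -0.32 to 0.37), and its second probe set gave -0.03 and -0.23, with the opposite sign each time. Ccl22, a ligand of Ccr4, read 447, 406 and 390.2 in overexpressors, against 412, 392 and 413 in their controls (0.03, 95% interval -0.19 to 0.24). Ccl22 read 406, 397 and 359 in knockouts, against 382, 361 and 428 in their controls (-0.0089, 95% interval -0.22 to 0.20), the narrowest intervals of the 20 genes. Ccr4 itself read 390.0, 433 and 454 in overexpressors, against 549.6, 476 and 453 in their controls (-0.19, 95% interval -0.50 to 0.11). The Ccr4 values were 449, 427 and 358 in knockouts, against 399, 516 and 348 in their controls (-0.02, 95% interval -0.33 to 0.29). Ccr6, the receptor of Ccl20, read 448, 501 and 545 in overexpressors, against 568, 576 and 514 in their controls (-0.14, 95% interval -0.39 to 0.10). Ccr6 read 544, 586 and 469.8 in knockouts, against 540.4, 508 and 533 in their controls (0.01, 95% interval -0.23 to 0.25). In none of these pairs were the groups apart.

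Of the CXC ligands that draw neutrophils through Cxcr2, Cxcl1 alone was tested. It read 141, 161 and 149.6 in overexpressors, against 155, 139 and 144 in their controls (0.03, 95% interval -0.30 to 0.37). Cxcl1 read 319, 412 and 361 in knockouts, against 483, 281 and 358 in their controls (-0.01, 95% interval -0.35 to 0.32), with overlapping groups. The second probe sets of Cxcl1 and Cx3cl1 were dim. Cxcl5 read 154, 125 and 148 in overexpressors, against 125, 142 and 119 in their controls. Cxcl5 read 54.0, 47.0 and 49.3 in knockouts, against 54.7, 40.9 and 73.6 in their controls. Cxcl2 read 136, 91.0 and 74.9 in overexpressors, against 70.2, 61.6 and 101 in their controls; in the knockout line 4 of 6 arrays, among them all 3 knockouts, were at the floor. Cxcr2 read 102, 146 and 169 in overexpressors, against 106, 145 and 105 in their controls. In the other line Cxcr2 read 183, 152 and 159.9 in knockouts, against 155, 120.4 and 177 in their controls. The groups overlapped in both lines for these 3 dim genes, and 7 tested neutrophil markers summed to 3784 to 4001 in overexpressors, 3738 to 4150.3 in their controls, 3436 to 4164 in knockouts and 3812 to 4421 in theirs.

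The 19 dim genes were among the 40% of probe sets with the lowest mean over the 12 arrays, a cut by rank and not a measure of background. The brightest of them (Cxcr2) averaged 143 over the 12 arrays and the dimmest tested gene (Cxcl9) 163, on either side of the limit of 157. Some genes passed or failed through 1 line. For example, the tested Ccl5 averaged 105 in overexpressors and 72.2 in their controls, and the tested Cxcl1 151 and 146. The dim Ccl7 averaged 211 in overexpressors and 202 in their controls. At the floor on at least 1 array were 5 of them: Cxcl2 (4 arrays of the knockout line), Ccl3 (2 arrays of the knockout line), Ccl25, Cxcl10 and Cxcl13 (1 array of the overexpressor line each). Fitted without the filter, 0 of all 39 were called in either comparison (limma, adjusted over 12422 probe sets, of which 0.0644% were called for the overexpressor and 0.0564% for the knockout). An unadjusted p under 0.05 was then found for 1 of 39 in overexpressors, against 4.69% of all, and for 2 of 39 in knockouts, against 4.11%.

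Those 3 were Cxcr4, Ccl17 and Ccl3, named after their values were seen. Cxcr4, the G protein-coupled receptor of Cxcl12, read 64.5, 72.0 and 47.8 in knockouts, against 23.0, 30.5 and 40.6 in their controls (log2 fold change 0.53, unadjusted p = 0.0015, limma adjusted p = 0.714). All knockouts lay above all controls, in values near the floor of 22.27, as in 5.17% of all probe sets. In the overexpressor line Cxcr4 read 35.8, 32.5 and 48.3 in overexpressors, against 45.6, 36.0 and 42.3 in their controls, with overlapping groups. Ccl17, a ligand of Ccr4, read 72.6, 87.2 and 74.8 in overexpressors, against 97.2, 96.7 and 101 in their controls (-0.23, unadjusted p = 0.00771, limma adjusted p = 0.82), with all overexpressors below all controls, as in 5.51% of all probe sets. The Ccl17 values were 140.0, 130.5 and 126 in knockouts, against 145, 129 and 127 in their controls. Ccl3, or MIP-1 alpha, read 22.8, 22.3 and 22.3 in knockouts, against 27.1, 49.3 and 29.1 in their controls (unadjusted p = 0.0484, limma adjusted p = 1), where 2 knockouts were at the floor and all lay below the controls, as in 2.33% of all probe sets, and 194, 147 and 149 in overexpressors, against 149.5, 136 and 148 in their controls. Ccl25, a gut and thymus ligand of Ccr9, also had groups apart, at 21.9, 29.9 and 31.9 in overexpressors, against 69.8, 41.5 and 50.9 in their controls (unadjusted p = 0.0985). Groups lay apart for 2 of 39 genes in the overexpressor line and 3 of 39 in the knockout line, against 8.05% and 7.5% of all probe sets.

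**Figure D5:**
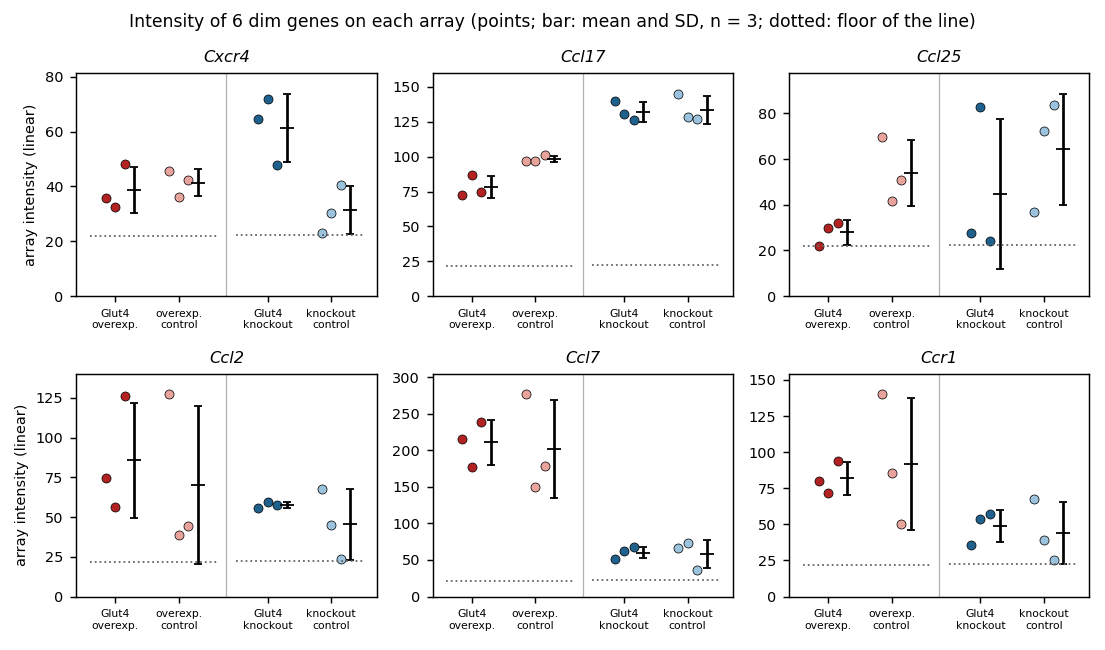
Linear intensity (vertical axes, from 0) of 6 genes left out of the test as dim; points are arrays, bars the mean and SD of 3, and dotted lines the smallest value deposited for each line. Knockouts lie above their controls for Cxcr4, overexpressors lie below their controls for Ccl17 and Ccl25, and the groups overlap for Ccl2, Ccl7 and Ccr1.

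Ccl2, or MCP-1, the main ligand of Ccr2, read 74.9, 56.2 and 126 in overexpressors, against 128, 38.5 and 44.5 in their controls. Ccl2 read 55.5, 59.3 and 57.4 in knockouts, against 67.9, 44.9 and 23.5 in their controls. Overexpressor 3 and overexpressor control 1 stood above the rest of their line, so the spread within groups exceeded the gap between the means of 85.7 in overexpressors and 70.2 in controls. Its neighbour on chromosome 11, Ccl7 or MCP-3, read 216, 177 and 239 in overexpressors, against 277, 149 and 178 in their controls. In the other line Ccl7 read 51.5, 61.7 and 67.5 in knockouts, against 66.0, 72.9 and 36.0 in their controls, with the same 2 arrays highest in the overexpressor line. Ccl6, a CC ligand of the mouse that lies close to Ccl9, read 59.8, 45.6 and 59.3 in overexpressors, against 59.7, 55.8 and 45.0 in their controls. The Ccl6 values were 75.8, 113 and 178 in knockouts, against 153, 86.0 and 72.8 in their controls. Ccr1, a receptor of monocytes and neutrophils, read 79.7, 71.7 and 94.0 in overexpressors, against 140.4, 85.4 and 50.02 in their controls. Ccr1 read 35.9, 53.6 and 57.1 in knockouts, against 67.7, 39.2 and 25.4 in their controls. For Ccl6 the highest arrays of the knockout line were knockout 3 and knockout control 1, and for Ccr1 knockout control 1 and then knockout 3. The platelet chemokine Pf4 read 53.8, 64.8 and 52.0 in overexpressors, against 49.2, 58.4 and 54.0 in their controls. In the other line Pf4 read 69.0, 59.8 and 63.1 in knockouts, against 65.9, 61.3 and 52.0 in their controls. The lymphoid genes Cxcl13, Cxcr5 and Ccr7, the gut-homing receptor Ccr9, the eotaxin receptor Ccr3 and the epithelial ligand Cxcl14 had overlapping groups, with values from 21.9 to 127.

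Whether a gene responded differently in the 2 lines was tested as the overexpressor effect minus the knockout effect. Of the 20 tested genes 0 were called by limma, where 0.161% of all tested probe sets were, and 1 had an unadjusted p under 0.05, against 4.95% of all. That gene was Ccl12, with a difference of -0.40, 95% interval -0.79 to -0.01 (unadjusted p = 0.0432, limma adjusted p = 0.893). Without the filter 0 of 39 were called, against 0.00805% of all, and 4 had an unadjusted p under 0.05 (Ccl12, Ccl17, Ccl3 and Cxcr4), against 4.57%. The lowest difference among the 20 was that of Ccl8 (-0.86, 95% interval -2.52 to 0.80) and the highest that of Ccr8 (0.43, 95% interval -0.27 to 1.13).

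Other genes of the pathway were also not called. Of 91 genes that carry chemokine signals, bind leukocytes, induce chemokines or trim them, 73 had a probe set with a single symbol and 54 were tested. In overexpressors 17 were higher and 37 lower (median -0.07), and in knockouts 36 were higher and 18 lower (median 0.03). Over all tested probe sets, 70.3% were lower in overexpressors and 63% higher in knockouts (medians -0.07 and 0.04). None of the 54 was called by limma, against 0.0805% of all for the overexpressor and 0.121% for the knockout. An unadjusted p under 0.05 was found for 2 and 1 of the 54, against 4.76% and 3.98% of all. Mmp12, a macrophage elastase that can cut chemokines, had the smallest p in overexpressors. It read 179, 134 and 187 in overexpressors, against 83.0, 48.5 and 57.2 in their controls (a fold change of 1.03 on the log2 scale, SE 0.18, adjusted p by limma = 0.0803). All overexpressors lay above all controls, as in 171 of 7454 tested probe sets. The 12 macrophage markers were lower on average in overexpressors, but 0 of 12 had groups apart. Overexpressor control 3 had the lowest marker mean of its line. The adjusted p of Mmp12 ran from 0.0388 to 0.43 over 21 alternatives and was under 0.05 in 6 of them. Rgs2, a brake on G protein signals, came next at -0.72 (SE 0.30, adjusted p = 0.913). In knockouts the smallest p was that of Rarres2, which encodes the chemoattractant chemerin. It read 3021, 4235 and 4169.7 in knockouts, against 3009, 2596 and 3108 in their controls (0.37, SE 0.14, adjusted p = 1), where knockout 1 lay among the controls. Cdc42, a GTPase of cell movement, came next at 0.40. By list, 16 of 22 signalling genes, 2 of 3 atypical receptors, 5 of 8 other chemoattractants and their receptors, 2 of 3 adhesion genes, 9 of 14 inducers and 3 of 4 trimming enzymes were lower in overexpressors, and 6, 2, 2, 1, 4 and 3 of them in knockouts.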

How the data were processed

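Total RNA of 12 mice was extracted with a Qiagen kit, labelled with biotin and hybridised to Affymetrix arrays, per the labels. The deposited values are linear intensities, 1 per probe set and array; the authors' summarisation, scaling and background steps are not stated in the labels. Arrays have no read depth, and their number limits precision. Groups came from the sample titles. The scale was log2(intensity + 36.92), where the added constant is the table's 10th percentile; array medians spanned 0.20, so no normalization was added. The 4968 probe sets (40%) with the lowest mean over 12 arrays were left out and 7454 tested. A model with 1 mean per group over the 12 arrays was run in limma 3.58.1 (R 4.3.3), with variances moderated by eBayes along a trend in mean level and 8 residual degrees of freedom, with Benjamini-Hochberg adjustment over all tested probe sets and a threshold of 0.05. The code was tested on simulated data. An exact permutation test of 3 against 3 cannot go below 0.1 and was not used.

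Symbols came from the platform annotation, updated by gene ID through RefSeq (10817 of 10833 single-symbol probe sets matched, and all 44 here). Promoter windows are RefSeq's. The array names no build, so no probe coordinates are given. Values in every array are given for genes with an unadjusted p under 0.05, groups apart, the brightest 6 ligands and 4 receptors, and a fixed set; other genes given by array were added after their values were seen. Genes, lists and this rule were chosen with earlier results of these data known. Alternatives were constants of 1 and the 25th percentile, no filter or 60% left out, 3 normalizations, the line's own arrays, no trend, a replicate block, single arrays left out and second probe sets. Figures used matplotlib 3.10.9 in Python 3.11.15.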

Additional observations from a re-analysis of the deposited data

How the results depend on the processing

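In all 22 alternatives for each mutant and 21 for the difference between the effects, none of the genes tested (20, or 39 without a filter, or 12 with a stricter one) was called; the lowest adjusted p was 0.309 in overexpressors (without overexpressor control 3), 0.714 in knockouts and 0.673 for the difference (limma). At an unadjusted p under 0.05 there were at most 4, 2 and 4. Over all probe sets, the overexpressor count of 6 calls became 11 with array medians subtracted, 12 with quantile normalization, 11 with it within each line and 1 on the line's own 6 arrays, and ran from 3 (without overexpressor control 2) to 21 (without overexpressor control 3). The difference went from 12 calls to 1 without a filter, and to between 1 (without overexpressor 3 or knockout 3) and 13 without single arrays, with 4 without knockout 2, 5 without knockout control 2 and 6 without knockout control 3. With no filter, 22 genes were higher and 17 lower in overexpressors, 23 and 16 in knockouts, and 20 and 19 for the difference, because 39 were tested; with the lowest 60% left out 12 were, split 6 and 6, 7 and 5, and 5 and 7. The overexpressor median ran from -0.13 (without overexpressor 3) to 0.032 without single arrays.

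Replicate numbers are shared by the groups but did not pair the samples: same-numbered arrays correlated at most at 0.020 in their deviations from the group means. With the number as a replicate block, calls were 5 for the overexpressor, 0 for the knockout (9 without the block; 242 probe sets at an unadjusted p under 0.05 with it, limma) and 1 for the difference, and 0 of the chemokine and receptor genes.

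Several fold changes turned in sign, many of them near 0. In overexpressors Xcl1 was 0.029 with array medians subtracted, 0.039 with quantile normalization and 0.039 with it within each line, and Ccl1 -0.029 by its second probe set. In knockouts, under the same 3 scalings, Ccl1 was -0.010, -0.037 and -0.037, Ccl8 -0.011, -0.062 and -0.060, and Ccr6 -0.026, -0.055 and -0.055; Ccl1 was -0.23 by its second probe set. The Ccl11 difference was 0.030 and 0.034 with the quantile normalizations, and that of Cxcr3 0.062, 0.051 and 0.050 under the 3 scalings. Without single arrays the overexpressor ranges that crossed 0 were Ccl22 -0.026 to 0.064, Ccr8 -0.092 to 0.20, Cxcl12 -0.38 to 0.037, Ackr3 -0.22 to 0.13, Cxcl1 -0.0056 to 0.072, Xcl1 -0.17 to 0.060, Ccl1 -0.0026 to 0.25, Ccl11 -0.13 to 0.23, Ccl4 -0.068 to 0.11, Ccl9 -0.60 to 0.047 and Cx3cl1 -0.17 to 0.029. Those of the knockout were Ccl5 -0.098 to 0.24, Ccr6 -0.056 to 0.093, Cxcl1 -0.18 to 0.17, Cxcl9 -0.17 to 0.054, Ackr3 -0.044 to 0.36, Ccl1 -0.083 to 0.12, Ccl11 -0.043 to 0.31, Ccl22 -0.059 to 0.053, Ccl4 -0.15 to 0.022, Ccl8 -0.41 to 0.37, Ccl9 -0.16 to 0.37, Ccr2 -0.023 to 0.40, Ccr4 -0.14 to 0.12, Cx3cr1 -0.098 to 0.087, Cxcl12 -0.19 to 0.39 and Cx3cl1 -0.040 to 0.084, and those of the difference Ccl11 -0.31 to 0.13, Ccl22 -0.028 to 0.084, Ccl1 -0.029 to 0.23, Ccl4 -0.0080 to 0.18, Cxcr3 -0.12 to 0.11 and Cxcl1 -0.14 to 0.22. The cause of these changes was not tested. Near 0 any shift turns a sign. Larger overexpressor changes turned when 1 array was left out, Ccl9 (-0.26) without overexpressor control 1 and Cxcl12 (-0.24) without overexpressor 1. The number of arrays and the dimness of 19 genes limit what could be called.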

Other observations

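Some chemokine probe sets name several genes and so stood outside the set. The one for the Ccl21 family, ligands of Ccr7 made by lymphatic endothelium and lymph node stroma, read 415, 319 and 264 in overexpressors, against 1008, 455 and 212 in their controls (a fold change of -0.47 on the log2 scale, SE 0.41, limma adjusted p = 0.918). It read 781, 916 and 1225 in knockouts, against 1909.8, 983 and 1485 in their controls (-0.54, SE 0.41, limma adjusted p = 1). The values varied up to several-fold within a group. The summed level of 3 lymphatic endothelial markers was 508 to 600.4 in overexpressors, 495 to 978 in their controls, 535 to 719.9 in knockouts and 485 to 811 in theirs. The probe set for Ccl19 and related copies read 440.1, 452 and 445 in overexpressors, against 396, 417 and 439 in their controls. All overexpressors lay just above all controls, as in 171 of 7454 tested probe sets. It read 294, 362 and 292 in knockouts, against 305, 246 and 266 in their controls, with overlapping groups. Neither comparison passed. For the Ccl27 family both probe sets were dim.

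Ccr1l1, a receptor-like gene whose symbol goes on past the number, was not counted among the 39; it read 137, 188 and 183 in overexpressors, against 166, 145 and 179 in their controls, and 153, 236 and 78.5 in knockouts, against 94.7, 156 and 144 in their controls. The groups overlapped in both lines.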
